A study of Mus musculus with 6 samples.

Results

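Potassium channel genes were examined in the striatum of young mice whose fathers had received methylphenidate or saline. Members were the protein-coding genes of the deposited table whose symbol begins with Kcn and carries a subfamily letter and a number. That pattern found 93 genes. The rule leaves out 3 of them, Kcne2, Kcnj13 and Kcnk9, so that 90 of the 45777 genes in the table were members. They fall into 20 subfamilies by the letters of the symbol. All mice were offspring (F1) of the outbred ICR strain, and their striatum was taken at 6 weeks of age. In the saline-sired group the sires had received saline at 10 mL/kg, and in the methylphenidate-sired group methylphenidate at 15 mg/kg. In both groups the sires were 6-week-old ICR males injected subcutaneously for 21 days and then mated with untreated females. The offspring themselves received no drug according to the labels' protocols. Each group has 3 libraries, from 2 females and 1 male by the labels. How many sires and litters these animals came from is not stated, so a p-value here reflects only how much these samples vary. Methylphenidate is a stimulant that slows the reuptake of dopamine and noradrenaline.

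Potassium channels let potassium leave or enter the cell and thereby set the resting potential, the shape of the action potential and the rate of firing. Voltage-gated channels are tetramers of pore-forming subunits, with silent modifier subunits and cytosolic or membrane-spanning auxiliary subunits that alter their gating and traffic. Inward rectifiers and leak (Kcnk) channels conduct near the resting potential, and other channels open with internal calcium or sodium. Medium spiny neurons, which form the output of the striatum, are known for a strongly negative resting potential held by inward rectifiers and for A-type and other voltage-gated currents that delay the first spike.

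Total counts per library lay between 31360042 and 38844724. Each library is called by its group and by the number its column carries (3, 4 and 5 for saline, 2, 4 and 6 for methylphenidate), since the labels do not say which animal a column holds. The tissue label was checked on 10 medium spiny neuron markers by CPM (read counts scaled to the library size). They summed to 6556 to 7074 CPM in saline-sired and 5660 to 6248 CPM in methylphenidate-sired libraries, without overlap. All 10 were lower in the methylphenidate-sired group, 7 of them at an unadjusted p under 0.05 (edgeR), where 3.95% of all genes were. In bulk tissue, fewer cells of a type and less RNA per cell cannot be told apart. Markers of cortical excitatory neurons, 10 in number, summed to 623, 356 and 804 CPM in the saline-sired libraries against 967, 1023 and 1146 CPM, without overlap. All 10 of these markers had positive fold changes. The 8 choroid plexus markers summed to 2078 CPM in saline-sired library 3 and 362 in library 4, against 30.4 to 84.7 in the other libraries. Saline-sired library 4 was thus lowest for cortical markers and library 3 highest for choroid plexus markers.

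Levels between genes were compared as CPM per kilobase (kb) of annotated exon. Summed over all members, the level was between 1065 and 1119 CPM per kb in the 6 libraries. A mean of at least 10 CPM per kb was reached by 32 members, 30 lay between 1 and 10, and 28 lay under 1. The 10 members of highest level held 52.1% of the summed level. The lengths take in every annotated exon, so a gene with long untranslated ends in the annotation is placed lower than its coding sequence alone would place it.

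Inward rectifiers and auxiliary subunits headed the order. Kcnj4 (Kir2.3), an inward rectifier that helps to hold the resting potential of spiny neurons, was highest with 88.7 ± 7.45 CPM per kb (SD over the 6 libraries). Kcnip2, a calcium-binding partner of Kv4 channels, followed with 80.9 ± 5.79. The ranges of these neighbours overlapped, and Kcnip2 was above Kcnj4 in saline-sired library 5. Kcnj10 (Kir4.1), which clears potassium in astrocytes, stood at 62.7 ± 6.61 CPM per kb, beside the Kv1 channel Kcna1 at 62.6 ± 4.62 and the Kv1 beta subunit Kcnab2 at 55.5 ± 2.83. The mean of the beta subunit Kcnab1 lay between those of Kcna1 and Kcnab2. Kcnj10 and Kcna1 changed places between libraries. The leak channel Kcnk1 had 51.5 ± 3.20 CPM per kb, and Kcnd2, which carries the A-type current of spiny neurons, had 43.2 ± 2.52. Kcnq3, a subunit of the M-current, was at 22.8 ± 1.47 CPM per kb. By subfamily, Kcnj genes held 19.8% of the summed level, Kcna genes 12.5%, Kcnip genes 11.5% and Kcnab genes 11.2%.

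**Figure D1:**
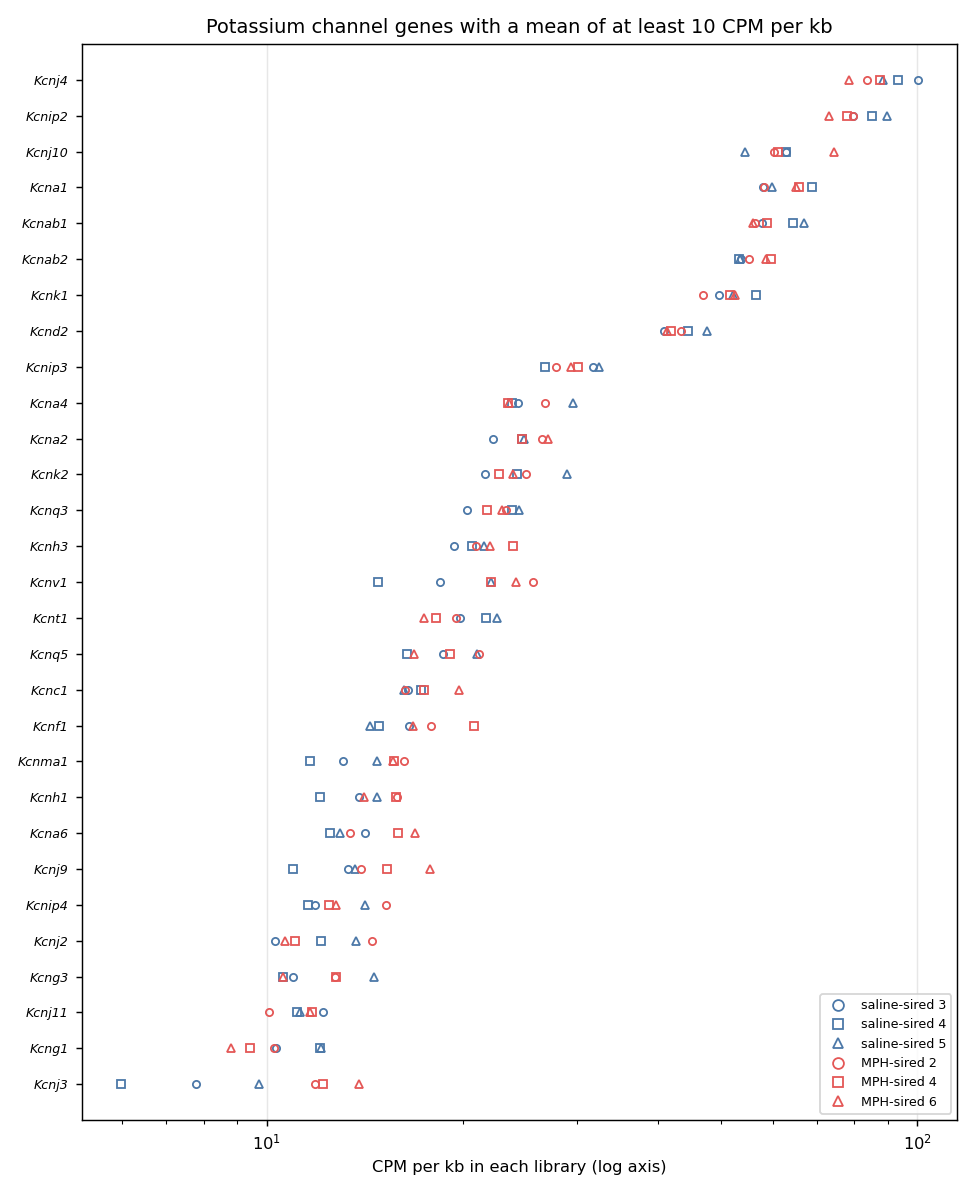
CPM per kb of exon (log axis) of 29 of the 32 members with a mean of at least 10, ordered by mean. Each symbol is 1 library, blue for saline-sired and red for methylphenidate-sired (MPH) offspring; Kcnj4 and Kcnip2 lead with means of 88.7 and 80.9.

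For 13 members the counts were too low for testing, with at most 18 counts in any library. Kcna10, Kcnj1, the renal channel, Kcnk16, Kcnk18 and Kcnv2, a photoreceptor subunit, had 0 counts in all 6 libraries. A count of 0 allows up to 3 counts, or 0.0957 CPM in the smallest library, from counting error alone. The other 8 were Kcna7, Kcne1, Kcne3, Kcnj15, Kcnk7, Kcnk15, Kcnmb3 and Kcnn4. The remaining 77 members passed the filter on low counts and were tested.

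The comparison of the groups addressed whether and how these channel genes differed with the sire's treatment. No member passed the test: of 77, 0 fell under the adjusted threshold of 0.05 (quasi-likelihood test of edgeR with Benjamini-Hochberg adjustment), where 0.0224% of the 17874 genes tested did. At an unadjusted p under 0.05 there were 21 members, or 27.3%, against 9.02% of all genes tested. Of these, 14 members were higher in the methylphenidate-sired group, or 18.2% of those tested, against 5.07% of all genes. The other 7 were lower, or 9.09%, against 3.95% of all genes. The median log2 fold change was 0.05 over the 77 members and -0.01 over all genes tested, and 47 members were positive and 30 negative. The interquartile range of the members lay between -0.07 and 0.27 on that scale, that of all genes between -0.14 and 0.10. DESeq2 called 2 of the 73 members to which it gave an adjusted p, Kcnj3 and Kcnt2, or 2.74%, against 1.15% of all such genes. limma-voom called 0 of 77, against 0.0224% of all genes. Without methylphenidate-sired library 6 the unadjusted counts were 8 higher and 3 lower, against 3.22% and 2.60% of all genes. Without saline-sired library 3 they were 9 and 7, against 3.90% and 2.98%.

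With the level of the cortical markers as a covariate, 2 members were higher, Kcnj3 among them, and 1 lower (Kcnip3) at an unadjusted p under 0.05. All genes had 1.82% higher and 1.70% lower in that fit, so both counts, out of 77 members, were near those shares. With the choroid plexus level as a covariate there were 8 higher and 8 lower, against 2.60% and 2.40% of all genes. Among the lower, Kcnk2, Kcnab1, Kcnip2 and Kcnd2 did not have such a p in the main fit. Their log2 fold changes with this covariate were -0.24, -0.24, -0.22 and -0.16. Kcna5, Kcnj4 and Kcnn3, lower in the main fit, no longer had such a p. The same was true of Kcnb2, Kcnc2, Kcnc4, Kcnh7, Kcnj9, Kcnk3, Kcnma1 and Kcnv1, higher in the main fit. The cortical marker level differed between the groups without overlap, so its part and that of the sire's treatment cannot be told apart in these libraries. The same holds for the medium spiny neuron marker level, which was not used as a covariate.

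**Figure D2:**
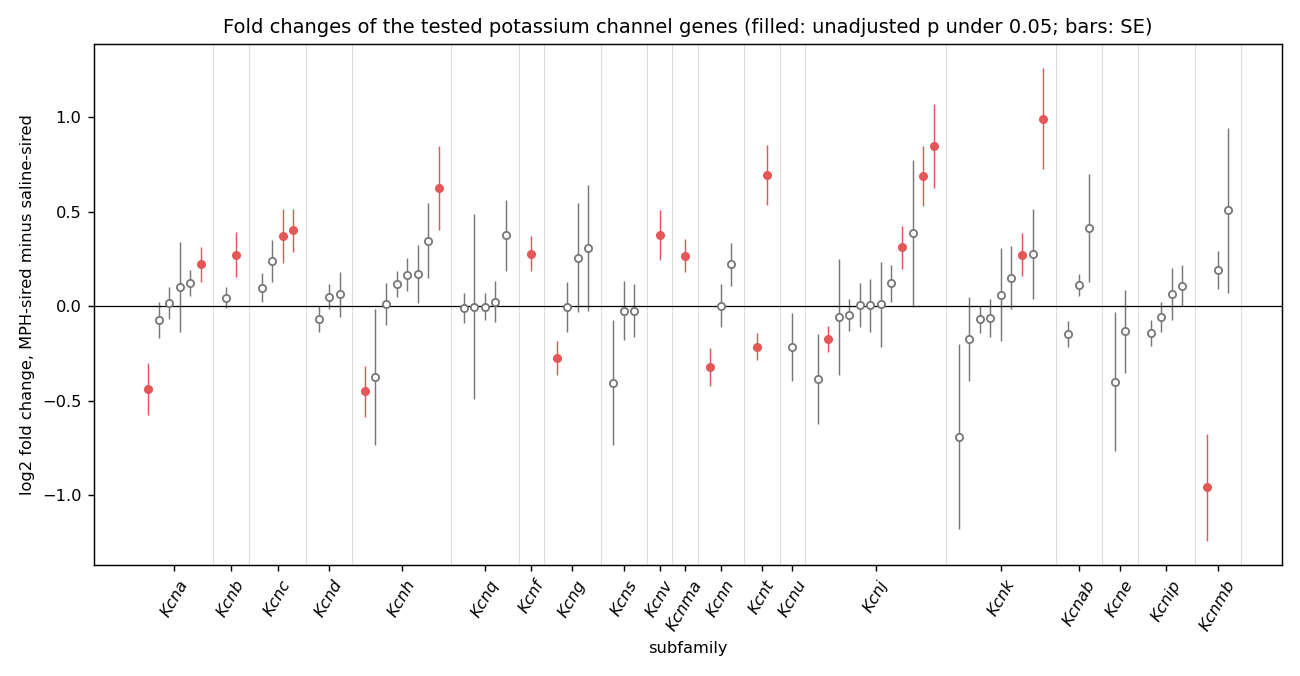
Log2 fold changes (methylphenidate-sired minus saline-sired, edgeR) of the 77 tested members by subfamily, with SE bars. Filled points mark the 21 members with an unadjusted p under 0.05; none passed after adjustment. Kcnj and Kcnt hold members far above 0 beside members near or below it.

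Among inward rectifiers, the 4 G protein-gated channels had the highest fold changes. These GIRK channels open when Gi/o-coupled receptors, such as the dopamine D2 and GABA-B receptors, release G protein beta-gamma subunits. Kcnj3 (GIRK1, Gene ID 16519, chromosome 2, 55411798 to 55598145) had 40.6, 31.2 and 50.8 CPM in the saline-sired offspring (libraries 3, 4, 5). Methylphenidate-sired offspring (libraries 2, 4, 6) had 61.8, 63.6 and 72.4. All 3 methylphenidate-sired values lay above the highest saline-sired one. The log2 fold change was 0.69 (SE 0.16, n = 3 per group, edgeR adjusted p = 0.400, unadjusted p = 0.00221; DESeq2 adjusted p = 0.00341). Over all alternative fits its adjusted p ran from 0.00341 to 0.994.

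Kcnj6 (GIRK2, Gene ID 16522, chromosome 16, 94744980 to 94997696) had the largest fold change of the inward rectifiers. Its values were 34.0, 25.2 and 51.4 CPM against 69.8, 58.1 and 70.9, again without overlap. The log2 fold change was 0.85 (SE 0.22, edgeR adjusted p = 0.428). Kcnj9 (GIRK3, Gene ID 16524, chromosome 1, 172320508 to 172329322) was at 57.1, 47.0 and 58.6 CPM against 59.8, 65.6 and 76.5. The groups did not overlap, but saline-sired library 5 and methylphenidate-sired library 2 were close. Its log2 fold change was 0.31 (SE 0.11, edgeR adjusted p = 0.488). The fourth of these genes, Kcnj5 (GIRK4), known mainly from heart and added here beyond the naming rule, had 0.997 ± 0.386 and 1.30 ± 0.466 CPM (log2 fold change 0.39, SE 0.39, adjusted p = 0.803 by edgeR). Summed over the 4 genes, the level was 133 ± 28.4 CPM in the saline-sired and 201 ± 17.6 CPM in the methylphenidate-sired group (SD, n = 3).

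The order of the libraries was the same for GIRK1 and GIRK2 within the saline-sired group as for the cortical markers, lowest in library 4 and highest in library 5. Fitted with the cortical markers as covariate, log2 fold changes were 0.24 for Kcnj3, 0.27 for Kcnj6 and 0.05 for Kcnj9 (edgeR unadjusted p = 0.0420, 0.147 and 0.730). Of the exon bases of Kcnj3, 31.1% overlap Gm26794 on the other strand, and no source here says whether counting used strand, so its counts are uncertain. For Kcnj6 and Kcnj9 such overlap with antisense genes covers 4.98% and 4.01%.

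**Figure D3:**
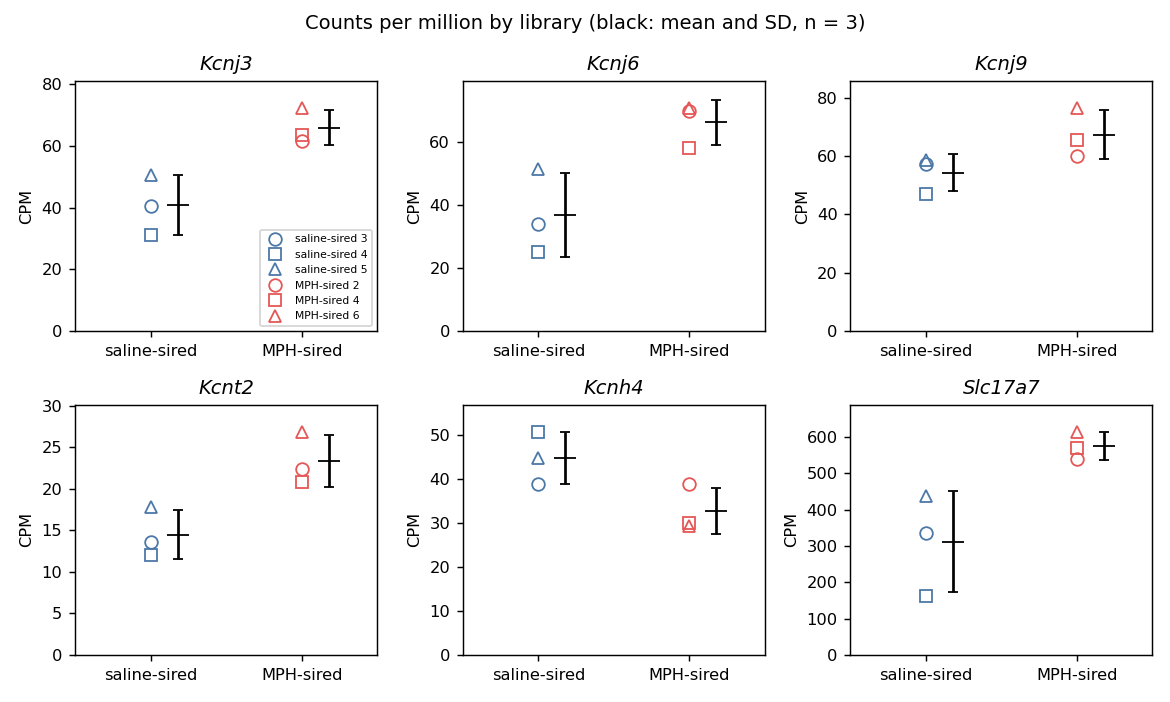
CPM of Kcnj3, Kcnj6, Kcnj9, Kcnt2 and Kcnh4 and of the cortical marker Slc17a7 in each library, with group mean and SD in black (n = 3). Kcnj3 and Kcnj6 were lowest in saline-sired library 4, as was Slc17a7, whose means were 312 and 575 CPM; Kcnh4 was highest there.

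The other tested inward rectifiers had log2 fold changes between -0.38 (Kcnj8) and 0.12 (Kcnj10). Kcnj4 (Gene ID 16520, chromosome 15, 79480226 to 79512511), the member of highest CPM per kb, was at 215, 201 and 191 CPM against 180.3, 189 and 169. The groups did not overlap, and the log2 fold change was -0.17 (SE 0.07, edgeR adjusted p = 0.507). With the choroid plexus covariate it was -0.10 (edgeR unadjusted p = 0.243). Kcnj2 (Kir2.1), known for the same role, had 65.6 ± 9.28 and 65.8 ± 11.6 CPM (log2 fold change 0.01, SE 0.14). The astrocytic Kcnj10 had 325 ± 26.3 and 353 ± 43.6 CPM and overlapped between groups. Kcnj8 (Kir6.1), a pericyte gene, had 2.41 ± 0.190 and 1.84 ± 0.436 CPM. Of 14 inward rectifiers, 12 were tested, with 8 positive and 4 negative. At an unadjusted p under 0.05 there were 3 higher and 1 lower of these 12, where 5.07% and 3.95% of all genes were.

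Sodium-activated channels had fold changes of opposite sign in their 2 genes. Kcnt2 (Slick, Gene ID 240776, chromosome 1, 140245657 to 140614045) had 13.6, 12.0 and 17.8 CPM in saline-sired offspring. The values of 22.4, 20.8 and 26.9 in methylphenidate-sired offspring all lay above these. The log2 fold change was 0.69 (SE 0.16, edgeR adjusted p = 0.400; DESeq2 adjusted p = 0.00894; 0.00894 to 0.994 over all alternative fits). Kcnt1 (Slack, Gene ID 227632, chromosome 2, 25863791 to 25918273) was at 188, 207 and 214 CPM against 185, 173 and 166, with no overlap but a narrow gap. Its log2 fold change was -0.22 (SE 0.07, edgeR adjusted p = 0.470). Kcnt1, the gene of higher CPM per kb, was the one with lower values in the methylphenidate-sired group. With the cortical covariate the values were 0.32 for Kcnt2 and -0.21 for Kcnt1, and with the choroid plexus covariate 0.52 and -0.30.

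Calcium-activated channels had fold changes of both signs. Kcnma1, the pore of the large-conductance BK channel that speeds repolarisation, was at 222, 198 and 251 CPM against 276, 266 and 265, without overlap. The log2 fold change was 0.27 (SE 0.09, edgeR adjusted p = 0.470), and 0.07 with the cortical covariate. Its neuronal beta subunit Kcnmb4 had 29.4 ± 3.27 and 33.7 ± 2.31 CPM (log2 fold change 0.19, SE 0.10), with overlap. Antisense Kcnmb4os1 and Kcnmb4os2 overlap 10.7% and 20.8% of the exon bases of Kcnmb4, so its counts are uncertain. For Kcnma1 such overlap with a gene on the other strand covers 5.98%. Kcnmb1, the beta subunit of smooth muscle, was scarce, with 56, 45 and 38 counts against 26, 23 and 19. Its log2 fold change was -0.96 (SE 0.28, edgeR adjusted p = 0.452). Kcnn3 (SK3), a small-conductance channel that shapes the afterhyperpolarisation, was at 45.7, 54.8 and 44.7 CPM against 36.9, 42.0 and 37.1. All 3 methylphenidate-sired values lay below the saline-sired ones (log2 fold change -0.32, SE 0.10, edgeR adjusted p = 0.458; -0.12 with the cortical covariate). Kcnn2 (SK2) had 38.7 ± 4.90 and 38.8 ± 3.99 CPM.

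In the ether-a-go-go subfamily, 6 of 8 genes were positive. An unadjusted p under 0.05 was found for 2 of the 8, in opposite directions, and for 9.02% of all genes tested. Kcnh4 (Elk1, Gene ID 380728, chromosome 11, 100740378 to 100760115), a striatum-enriched channel, had 38.83, 50.8 and 44.7 CPM against 38.82, 30.1 and 29.3. The lowest saline-sired value, in library 3, and the highest methylphenidate-sired one, in library 2, were nearly equal. The log2 fold change was -0.45 (SE 0.13, edgeR adjusted p = 0.452), -0.25 with the cortical and -0.54 with the choroid plexus covariate. Saline-sired library 4, lowest for cortical markers, was the highest for Kcnh4. Kcnh7 (Erg3) was at 48.6, 40.1 and 78.2 CPM against 79.5, 79.4 and 98.5. Saline-sired library 5 lay just under the methylphenidate-sired range, and the log2 fold change was 0.63 (SE 0.22, edgeR adjusted p = 0.474), 0.96 without that library, 0.04 with the cortical and 0.34 with the choroid plexus covariate. Exons of Kcnh7 overlap those of Gca, on the other strand, over 4.57% of their bases.

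To show the sequence before a transcript start of these genes, the 250 bases before a RefSeq start (GRCm38.p6, the assembly that mm10 names) are given for the 3 neuronal GIRK genes, whose values were higher together, for Kcnt2, which DESeq2 called with Kcnj3, and for Kcnh4, which was lower. They lie at chr2:55435720-55435969 (plus strand), chr16:94997697-94997946 (minus), chr1:172329323-172329572 (minus), chr1:140245468-140245717 (plus) and chr11:100759779-100760028 (minus), in the order printed, 5′ to 3′ along the gene. The windows of Kcnj3 and Kcnh4 lie inside the span of their gene, before a later transcript start, and that of Kcnt2 runs past the first base of its gene. Capitals mark the letters GGGCGG (named the GC box), the letters TATAAA (named the TATA box) or the short form TGACG of the cAMP response element, each searched on both strands.
Kcnj3: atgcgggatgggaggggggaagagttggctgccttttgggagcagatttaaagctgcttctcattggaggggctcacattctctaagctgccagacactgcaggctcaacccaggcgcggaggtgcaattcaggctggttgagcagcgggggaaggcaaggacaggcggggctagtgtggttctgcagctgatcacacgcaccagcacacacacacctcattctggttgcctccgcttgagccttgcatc
Kcnj6: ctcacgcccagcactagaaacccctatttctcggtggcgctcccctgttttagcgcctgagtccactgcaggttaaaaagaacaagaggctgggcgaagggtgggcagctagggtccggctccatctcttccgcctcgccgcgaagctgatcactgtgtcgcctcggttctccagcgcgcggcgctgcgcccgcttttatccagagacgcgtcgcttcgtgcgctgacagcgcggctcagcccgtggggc
Kcnj9: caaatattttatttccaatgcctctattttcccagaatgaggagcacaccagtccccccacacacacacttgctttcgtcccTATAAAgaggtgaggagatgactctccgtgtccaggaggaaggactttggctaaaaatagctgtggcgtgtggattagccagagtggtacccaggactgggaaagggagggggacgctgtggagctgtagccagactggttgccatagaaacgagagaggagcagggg
Kcnt2: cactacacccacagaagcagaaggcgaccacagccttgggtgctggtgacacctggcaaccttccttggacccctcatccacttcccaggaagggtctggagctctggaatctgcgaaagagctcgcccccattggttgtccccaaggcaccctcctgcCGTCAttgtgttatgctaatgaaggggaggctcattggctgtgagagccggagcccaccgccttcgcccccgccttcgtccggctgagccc
Kcnh4: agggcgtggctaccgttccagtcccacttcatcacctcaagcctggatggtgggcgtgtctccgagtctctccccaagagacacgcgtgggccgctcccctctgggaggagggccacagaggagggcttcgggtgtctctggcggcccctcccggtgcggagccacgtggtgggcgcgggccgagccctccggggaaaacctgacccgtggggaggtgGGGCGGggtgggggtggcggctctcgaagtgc
Kcnj9 holds a TATA box, Kcnt2 the short element and Kcnh4 a GC box, while Kcnj3 and this start of Kcnj6 hold none of the motifs. Across all 32851 windows of this length, 32.7% hold the GC box, 12.4% the TATA box and 17.8% the short element. Over the 90 windows found for 66 members the shares were 45.6%, 2.22% and 13.3%. The median content of G and C was 58.8% in these windows and 52.4% in all windows, and its part in the shares was not tested. The full cAMP response element (TGACGTCA) is in 1.55% of all windows and in 0 of the 90. These matches describe letters only.

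Of the Kv3 channels, which let fast-spiking neurons repolarise quickly, all 4 genes were positive. Kcnc4 was at 27.7, 24.8 and 32.4 CPM against 33.5, 39.3 and 39.2, without overlap (log2 fold change 0.40, SE 0.11, edgeR adjusted p = 0.452), and its log2 fold change was 0.14 with the cortical covariate. Kcnc2 was at 51.9, 56.0 and 49.5 CPM against 53.1, 67.5 and 83.1. Methylphenidate-sired library 6 was highest, and the log2 fold change of 0.37 (adjusted p = 0.502 by edgeR, SE 0.15) was 0.20 without it. Kcnc1, of higher CPM per kb, had 0.10 (SE 0.08) and overlapped between groups. Beside this, the 4 genes listed for these interneurons, Pvalb, Gad1, Gad2 and Lhx6, were all negative, with a median log2 fold change of -0.06. They summed to 1020 to 1231 CPM in saline-sired and 1003 to 1126 in methylphenidate-sired libraries. Gad1 and Gad2 are made by GABA neurons in general, spiny neurons included, so this sum does not measure fast-spiking interneurons.

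Of the other voltage-gated subfamilies, Kcna had 1 gene higher and 1 lower of 6 tested at an unadjusted p under 0.05. Kcnb had 1 higher of 2 tested, and Kcnd and Kcnq had 0 of 3 and 0 of 5. Among all genes tested the share with such a p was 9.02%. Kcna5 (Kv1.5) was at 24.4, 19.1 and 20.1 CPM against 15.4, 18.1 and 13.6, without overlap (log2 fold change -0.44, SE 0.14, edgeR adjusted p = 0.463). Kcnb2 (Kv2.2) was at 13.0, 12.1 and 14.9 CPM against 14.5, 17.0 and 16.9, with overlap, and its log2 fold change was 0.27 (SE 0.12, edgeR adjusted p = 0.546), and 0.07 with the cortical covariate. Kcna6 (Kv1.6), which lies outside the naming rule and was chosen after its values were seen, had 78.5 ± 5.08 and 91.6 ± 10.6 CPM (0.22, SE 0.09, edgeR adjusted p = 0.531; 0.12 with the cortical covariate). Antisense Gm26673 overlaps 39.6% of its exon bases. The abundant Kcna1, Kcna2, Kcnd2 and Kcnq3 had log2 fold changes between -0.07 (Kcnd2) and 0.12 (Kcna2), none over 2 times its SE.

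Modifier subunits form no channel alone and join Kv2 subunits. Kcnf1 (Kv5.1) was at 79.1, 71.3 and 69.0 CPM against 85.8, 99.7 and 80.4, without overlap (log2 fold change 0.28, SE 0.09, edgeR adjusted p = 0.470). Kcnv1 (Kv8.1) was at 84.8, 68.0 and 102 CPM against 118, 101 and 111. Saline-sired library 5 and methylphenidate-sired library 4 overlapped, and the log2 fold change of 0.38 (adjusted p = 0.475 by edgeR, SE 0.13) was 0.24 without saline-sired library 4. Kcng1 (Kv6.1) was lower, at 46.5, 54.4 and 54.6 CPM against 46.3, 42.5 and 39.8, with library values of 46.5 and 46.3 nearly touching. Its log2 fold change was -0.27 (SE 0.09, edgeR adjusted p = 0.470). With the cortical covariate the values were 0.30 for Kcnf1, 0.04 for Kcnv1 and -0.22 for Kcng1. The choroid plexus covariate gave 0.37 for Kcnf1, 0.24 for Kcnv1 and -0.37 for Kcng1.

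For leak channels, which have a pair of pore domains per subunit, 9 of 13 genes were tested, with 5 positive. Kcnk4 (TRAAK), opened by membrane stretch, was scarce, at 70, 50 and 82 counts against 107, 113 and 171, without overlap. Its log2 fold change was the largest of all members, 0.99 (SE 0.27, edgeR adjusted p = 0.433), and 0.46 with the cortical covariate. Exons of Kcnk4 and Catsperz overlap on the same strand over 13.1% of its exon bases, so its counts are uncertain. Kcnk3 (TASK-1), closed by acid, was at 10.9, 10.7 and 11.3 CPM against 11.7, 14.2 and 13.8. The gap between groups was small (log2 fold change 0.27, SE 0.11, edgeR adjusted p = 0.524). Gm9899, on the other strand, overlaps 5.76% of the exon bases of Kcnk3. Kcnk1 and Kcnk2, the leak channels of highest CPM per kb, had log2 fold changes of -0.07 (SE 0.07) and -0.06 (SE 0.10).

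**Figure D4:**
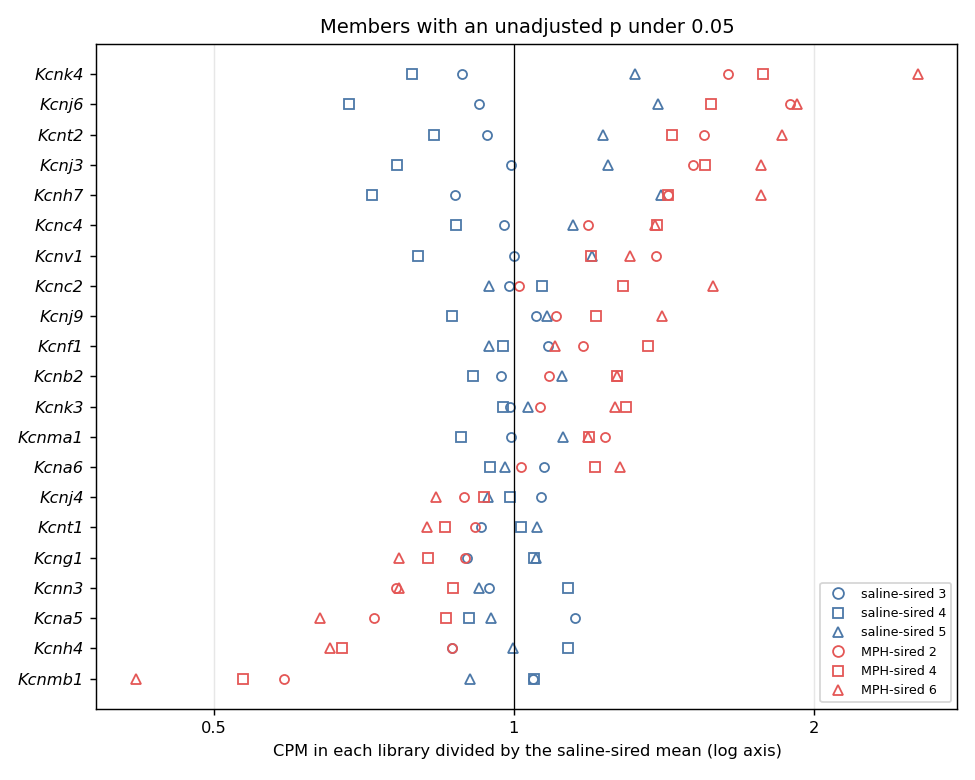
CPM in each library divided by the saline-sired mean (log axis) for the 21 members with an unadjusted p under 0.05. Each symbol is 1 library, blue for saline-sired and red for methylphenidate-sired; the gaps between the groups are narrow in Kcnh4, Kcng1 and Kcnt1.

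Auxiliary subunits gave 1 unadjusted p under 0.05 among 12 tested, that of Kcnmb1, which is near the share of 9.02% among all genes. Kcnab1 had 542 ± 41.8 and 489 ± 13.3 CPM (log2 fold change -0.15, SE 0.07, edgeR adjusted p = 0.588), with overlap. Kcnip2, which is enriched in spiny neurons, was at 277.1, 296 and 312 CPM against 276.7, 271 and 254, and its log2 fold change was -0.14 (SE 0.07, edgeR adjusted p = 0.584). Saline-sired library 3 and methylphenidate-sired library 2 differed by less than 1 CPM for that gene. The medium spiny neuron markers, beside these, were negative in 10 of 10 with a median of -0.20, and summed to 6556 to 7074 CPM in saline-sired and 5660 to 6248 CPM in methylphenidate-sired libraries. Their part in the values of Kcnip2, Kcnh4 and Kcnj4 was not tested.

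Over all tested members the groups did not overlap for 13 higher genes, or 16.9% of members against 7.84% of all genes tested, and for 9 lower genes, or 11.7% against 7% of all genes.

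Of 35 partners of these channels outside the Kcn symbols, 33 were tested, with 22 positive and 11 negative. None passed the edgeR test, while DESeq2 called 2, Gabbr2 among them, where it called 1.15% of all genes. At an unadjusted p under 0.05, 5 of the 33 were higher, a larger share than the 5.07% of all genes. In the other direction 1 of the 33 was lower, a smaller share than the 3.95% of all genes. Gabbr2, a subunit of the GABA-B receptor that opens GIRK channels, had 152 ± 32.5 CPM in saline-sired and 229.7 ± 9.996 CPM in methylphenidate-sired offspring (log2 fold change 0.59, SE 0.14, edgeR adjusted p = 0.400; DESeq2 adjusted p = 0.00341). Its partner subunit Gabbr1 had -0.004 (SE 0.06). Lrrc55, a gamma subunit of BK channels, had 0.34 (SE 0.10), and Dpp10, an auxiliary subunit of Kv4 channels, had 0.34 (SE 0.12). Rgs7, which speeds the closing of GIRK channels, had 0.19 (SE 0.07), while Gnb5, the G protein beta subunit bound to it, had -0.20 (SE 0.06, edgeR adjusted p = 0.452). For each of the 5 higher genes every methylphenidate-sired library lay above every saline-sired one, and for Gnb5 below.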

How the data were processed

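Striatal RNA of 6 offspring was sequenced, 3 per group. Per the submitters' processing notes, bcl2fastq 2.20.0, Trimmomatic, HISAT2 2.1.0 and StringTie 2.1.3b were used with the mouse build mm10. Their order and settings and the strandedness: not given in the sources used here. From the authors' deposited table the whole-number read counts per gene, not normalized, were used; its FPKM and TPM columns were not. Column names give a group and a number that differs as a set from the labels' numbers, so columns were tied to groups.

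Counts were tested with edgeR 4.0.16 (R 4.3.3): filterByExpr, TMM scaling, quasi-likelihood F test with no covariate, and Benjamini-Hochberg adjustment over 17874 genes at 0.05. The SE is the absolute log2 fold change over the square root of F. CPM values use TMM-scaled library sizes, and CPM per kb divides them by the merged exon length of GENCODE vM21, chosen after the files were seen in place of TPM. DESeq2 1.42.0 and limma-voom (limma 3.58.1) were alternatives. The fits were tested on simulated data. No pair of libraries agreed within sampling noise (chi-square per gene at least 8.40). Overlapping exons came from GENCODE vM21. Exons of 27 of the 90 members overlapped those of another gene, among them 9 of the 21 with an unadjusted p under 0.05 (edgeR). By blastn 2.17.0 (at least 95% identity over 200 nucleotides) only Kcnj14 had a near-identical copy elsewhere. Coordinates and promoters are RefSeq's (GRCm38.p6); all 90 members matched by Gene ID.

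Members past the test, up to 12 per direction at an unadjusted p under 0.05, the 2 of highest CPM per kb per subfamily and 16 textbook genes could be named, with partner genes at an unadjusted p under 0.05. The members and lists were chosen with earlier results of these data known. Results for a few genes are not reported here.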

Additional observations from a re-analysis of the deposited data

How the results depend on the processing

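No paired analysis was possible because the columns carry other numbers than the labels, and the groups share only the number 4. The alternatives were RLE scaling, DESeq2, limma-voom, no low-count filter, at least 10 counts in every library, each library left out, and the cortical or choroid plexus level as a covariate. Counts of members past the adjusted threshold were 0 in each except DESeq2, with 2. The count of members higher at an unadjusted p under 0.05 was 14, ran from 8 to 17 with a library left out, and was 2 with the cortical and 8 with the choroid plexus covariate. The lower count was 7, ran from 3 to 7 with a library left out, and was 1 with the cortical and 8 with the choroid plexus covariate. In the main fit 5.07% of all genes were higher and 3.95% lower at that p. Both shares were smaller in the covariate fits, as given above. For the fits with a library left out, shares are given above for only 2 of the libraries. The ranges of these counts are therefore not read as a result about the members. The median log2 fold change ran from 0.049 to 0.090 with a library left out and was 0.080 with the choroid plexus covariate. The cause of these differences was not tested, and each left-out library leaves fewer samples.

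None of the 19 named members with a low unadjusted p changed sign in any of the 13 alternatives. Among the 47 named members tested, 14 with fold changes that did not pass the test changed sign somewhere. With a library left out, log2 fold changes ran from -0.035 to 0.098 for Kcna1, -0.129 to 0.042 for Kcna4, -0.303 to 0.055 for Kcne1l, -0.089 to 0.167 for Kcng3, -0.137 to 0.0069 for Kcnip3 and -0.134 to 0.120 for Kcnj2. They ran from -0.159 to 0.069 for Kcnk2, -0.126 to 0.842 for Kcnmb2, -0.072 to 0.0997 for Kcnn2, -0.088 to 0.054 for Kcnq3, -0.088 to 0.039 for Kcns1 and -0.184 to 0.078 for Kcns2. The cortical covariate gave -0.0082 for Kcnj2, 0.0010 for Kcnk1, -0.0099 for Kcnmb4 and 0.068 for Kcns1, and the choroid plexus covariate 0.133 for Kcne1l, -0.181 for Kcnj2 and 0.080 for Kcns1. limma-voom gave 0.0084 for Kcng3. Without the filter Kcng3 and Kcnq3 had 0.0059 and 0.0034, and with at least 10 counts 0.0055 and 0.0029. Scarce members such as Kcnk4 and Kcnmb1 rest on fewer than 200 counts per library.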
